A study of Mus musculus with 12 samples.

Results

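The 10 genes Cd36, Lpl, Fabp4, Fabp5, Dgat1, Dgat2, Plin2, Pnpla2, Lipe and Pparg handle fatty acid uptake, storage and release, and their RNA was compared between eosinophils of 2 mouse fat depots and of blood. They were chosen by name for these roles, with earlier results of these data known. All 10 of them were found among 54115 annotated genes, and all 10 were among the 15367 genes that passed the filter on low counts. Eosinophils are granulocytes that circulate in blood and also settle in adipose tissue. The labels name 5 male mice of strain FVB/NJ, wild type and untreated, aged 20 weeks and fed chow, which gave 12 libraries. A library is called by its tissue and mouse, as in gonadal 2683. Gonadal adipose eosinophils came from mice 2846, 2807, 2683 and 2668, subcutaneous adipose eosinophils from mice 2846, 2807, 2771 and 2668, and blood eosinophils from mice 2807, 2771, 2683 and 2668. Per the labels, sorted cells were live and carried CD45, CD11b and Siglec-F. Fat was first digested with collagenase type II at 1 mg/mL for 45 min at 37 C, and no digestion is given for blood, so tissue and digestion cannot be told apart. In bulk RNA of sorted cells, fewer cells of a type and less RNA per cell cannot be told apart.

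Cells take up fatty acids from lipoproteins after lipoprotein lipase frees them, carry them across the membrane and the cytosol on CD36 and on fatty acid binding proteins, and esterify them to triglyceride. Triglyceride is kept in droplets coated by perilipins, and lipases release the fatty acids again. In adipose tissue these steps are best known from adipocytes, but macrophages and endothelial cells use several of the same genes, so none of the 10 marks 1 cell type.

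Depth lay between 12477671 and 23734940 estimated reads in 11 libraries and was 4379954 in subcutaneous 2846. Mitochondrial ribosomal RNA made up 28.09% of its reads and 4.663% to 8.786% of those of the others. Of the sorted proteins, only Siglec-F was checked here by its RNA, beside eosinophil genes that were not part of the sort. Siglecf, which encodes the sorted surface protein, ranged from 189 to 524 CPM (reads of a gene relative to the TMM-scaled library) in gonadal adipose, from 149 to 467 CPM in subcutaneous adipose and from 231 to 324 CPM in blood. Ccr3, the eotaxin receptor gene, was present in every library and fell in both depots against blood (log2 fold change -1.07 and -1.12, edgeR adjusted p = 0.0316 and 0.0275). The granule protein genes Epx and Prg2 were low in every library, at no more than 7.69 CPM and 4.76 CPM.

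Markers of other cells were present too. The summed CPM of 20 macrophage markers was 1929 to 9286 in gonadal adipose, 1873 to 7658 in subcutaneous adipose and 491 to 1890.0 in blood, so the lowest subcutaneous library lay just below the highest blood library. Of these 20 genes, 11 rose in gonadal adipose against blood and 12 in subcutaneous adipose, where 15.4% of all genes tested rose in either comparison, and none fell. The gene for the complement subunit C1qa, a tissue macrophage marker, had 52.7 to 203 CPM in gonadal adipose, 84.8 to 303 CPM in subcutaneous adipose and 0 to 15.9 CPM in blood. The sum of 15 adipocyte markers was 6.15 to 26.4 CPM in gonadal adipose, 8.76 to 91.3 CPM in subcutaneous adipose and 1.09 to 6.88 CPM in blood. Adipoq, the defining adipocyte hormone gene, was at most 0.882 CPM in any library and at 0 in all 4 blood libraries and in the subcutaneous libraries of mice 2846 and 2668. Of the 8 adipocyte markers tested, 4 rose in each depot against blood and none fell (median log2 fold changes 3.17 and 4.45). Of 10 endothelial markers tested, 2 rose and 1 fell in gonadal adipose. In subcutaneous adipose 3 of them rose and none fell (medians 2.30 and 4.12). The sum of 13 fibroblast and progenitor markers reached 6149.7 CPM in subcutaneous 2846, with 593 to 716 CPM in the other 3 subcutaneous libraries. Gonadal libraries had 400.1 to 971 CPM and blood libraries 355 to 473 CPM. Of these 13 genes, 10 rose in each depot against blood and none fell (median log2 fold changes 6.38 and 8.01). The sums hide this in part, since Gsn alone had 216 to 268 CPM in blood. Col3a1 had 35.4 to 225 CPM in gonadal adipose and at most 5.04 CPM in blood.

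Other marker lists moved the other way. The sum of 11 neutrophil markers was 387 to 814 CPM in gonadal adipose, 427 to 1313 CPM in subcutaneous adipose and 3092 to 4631 CPM in blood, with no overlap between adipose and blood. Of the 9 that were tested, 7 fell in each depot against blood and none rose, where 11.6% of all genes fell in gonadal and 11.4% in subcutaneous adipose. Of the 12 eosinophil markers 6 fell in each depot and none rose. Against blood, 5 of 6 B cell markers and 4 of 7 T cell markers fell in gonadal adipose, while none of the 6 B cell markers passed the threshold in subcutaneous adipose, where 3 of 7 T cell markers rose.

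**Figure D1:**
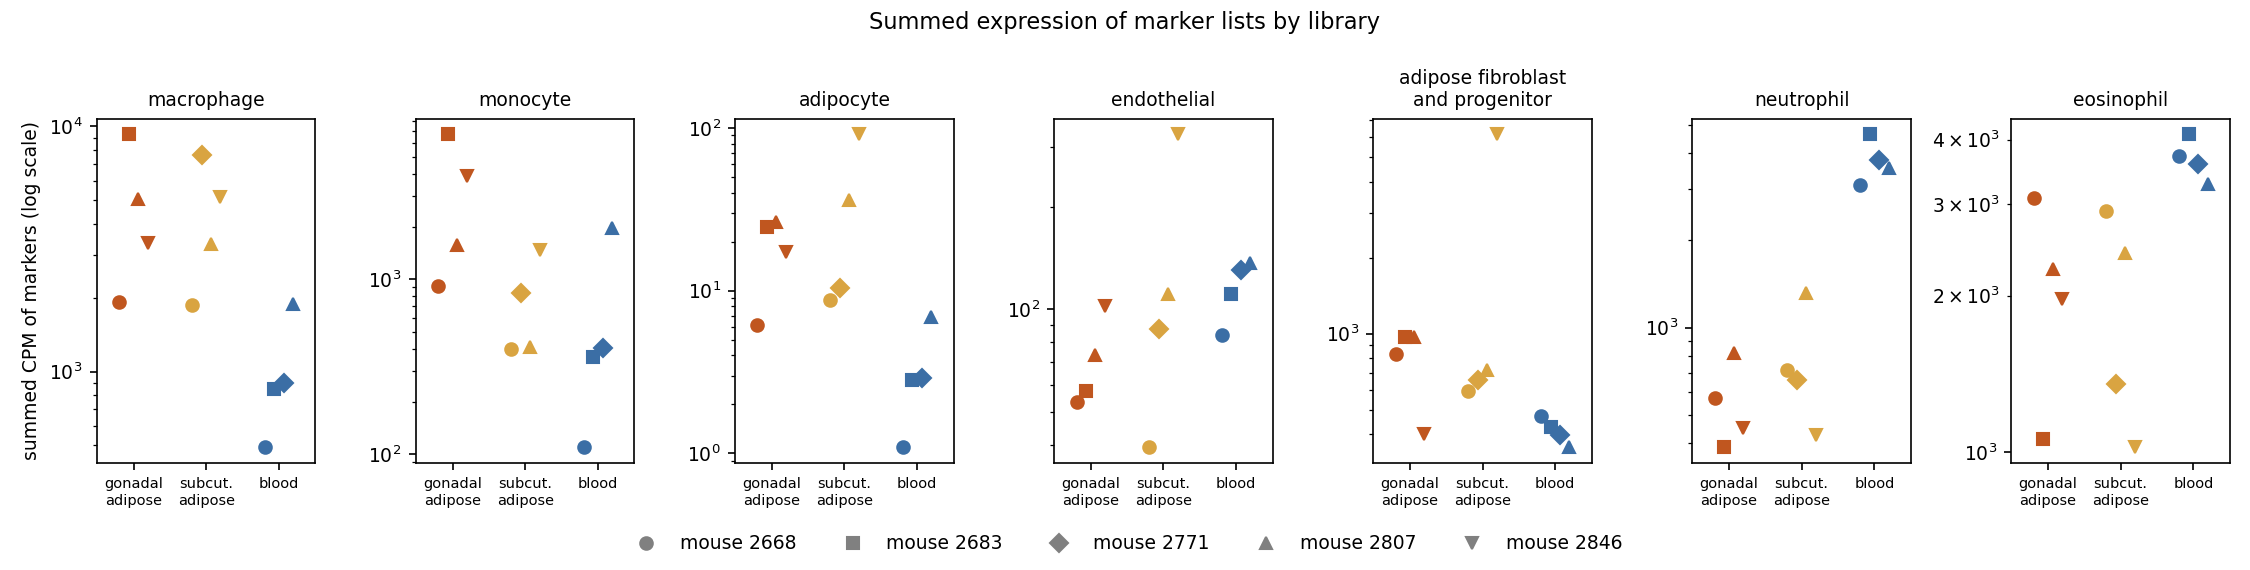
Each point is the summed CPM (log axis) of a marker list in 1 library, by tissue, with the symbol giving the mouse. Eosinophil sums lie at 1060.5 to 3079 CPM in gonadal adipose and 1021 to 2914 CPM in subcutaneous adipose, all below the 3283 to 4093 CPM of blood. Neutrophil sums are likewise lower in every adipose library than in any blood library, while the macrophage sums of all gonadal and 3 of 4 subcutaneous libraries lie above the highest blood library.

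The 10 genes split by direction. In gonadal adipose against blood, 6 rose (Cd36, Lpl, Fabp4, Fabp5, Dgat1 and Plin2), 3 fell (Dgat2, Pnpla2 and Lipe) and Pparg did not pass the threshold (edgeR quasi-likelihood test, Benjamini-Hochberg adjusted p under 0.05 over all genes tested). That is 9 of 10 genes, where 27.0% of all genes tested were called (15.4% higher and 11.6% lower). The 10 genes were chosen with earlier results of these data known. Their counts and medians set against all genes are therefore no independent test. With the mouse as a block, 6 of the 10 were called, where 21.3% of all genes were, and Lpl, Fabp5 and Dgat2 were not. In subcutaneous adipose against blood, 3 rose (Cd36, Fabp4 and Dgat1) and 2 fell (Pnpla2 and Lipe), where 26.8% of all genes were called. There too 5 were called with the mouse as a block, where 18.9% of all genes were. With no filter on low counts, 5 of the 10 were called in gonadal and 3 in subcutaneous adipose against blood, where 11.5% of all 28788 genes tested were called in either. Between gonadal and subcutaneous adipose edgeR called none of the 10, where 0.00651% of all genes, 1 gene, was called (0.00347% with no filter). At an unadjusted p under 0.05 there were 3 (Lpl, Plin2 and Dgat2), where 8.03% of all genes were. DESeq2 called Plin2 there (adjusted p = 0.0110), where it called 0.989% of all genes. Against blood DESeq2 called 34.4% of all genes in either depot. The median log2 fold change of the 10 was 3.25 in gonadal adipose over blood, 1.40 in subcutaneous adipose over blood and 0.60 in gonadal over subcutaneous adipose. Over all genes tested the medians were 0.08, 0.07 and -0.01. The comparisons share libraries, so they are not independent of each other.

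The CPM ranges of the groups did not overlap for 8 of the 10 in gonadal adipose against blood (36.3% of all genes tested), for 6 in subcutaneous adipose against blood (29.5%) and for 3 in gonadal against subcutaneous adipose (3.62%). The 8 were Cd36, Lpl, Fabp4, Dgat1, Dgat2, Plin2, Pnpla2 and Lipe. The 6 were Cd36, Fabp4, Dgat1, Plin2, Pnpla2 and Lipe. The 3 were Lpl, Plin2 and Dgat2.

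**Figure D2:**
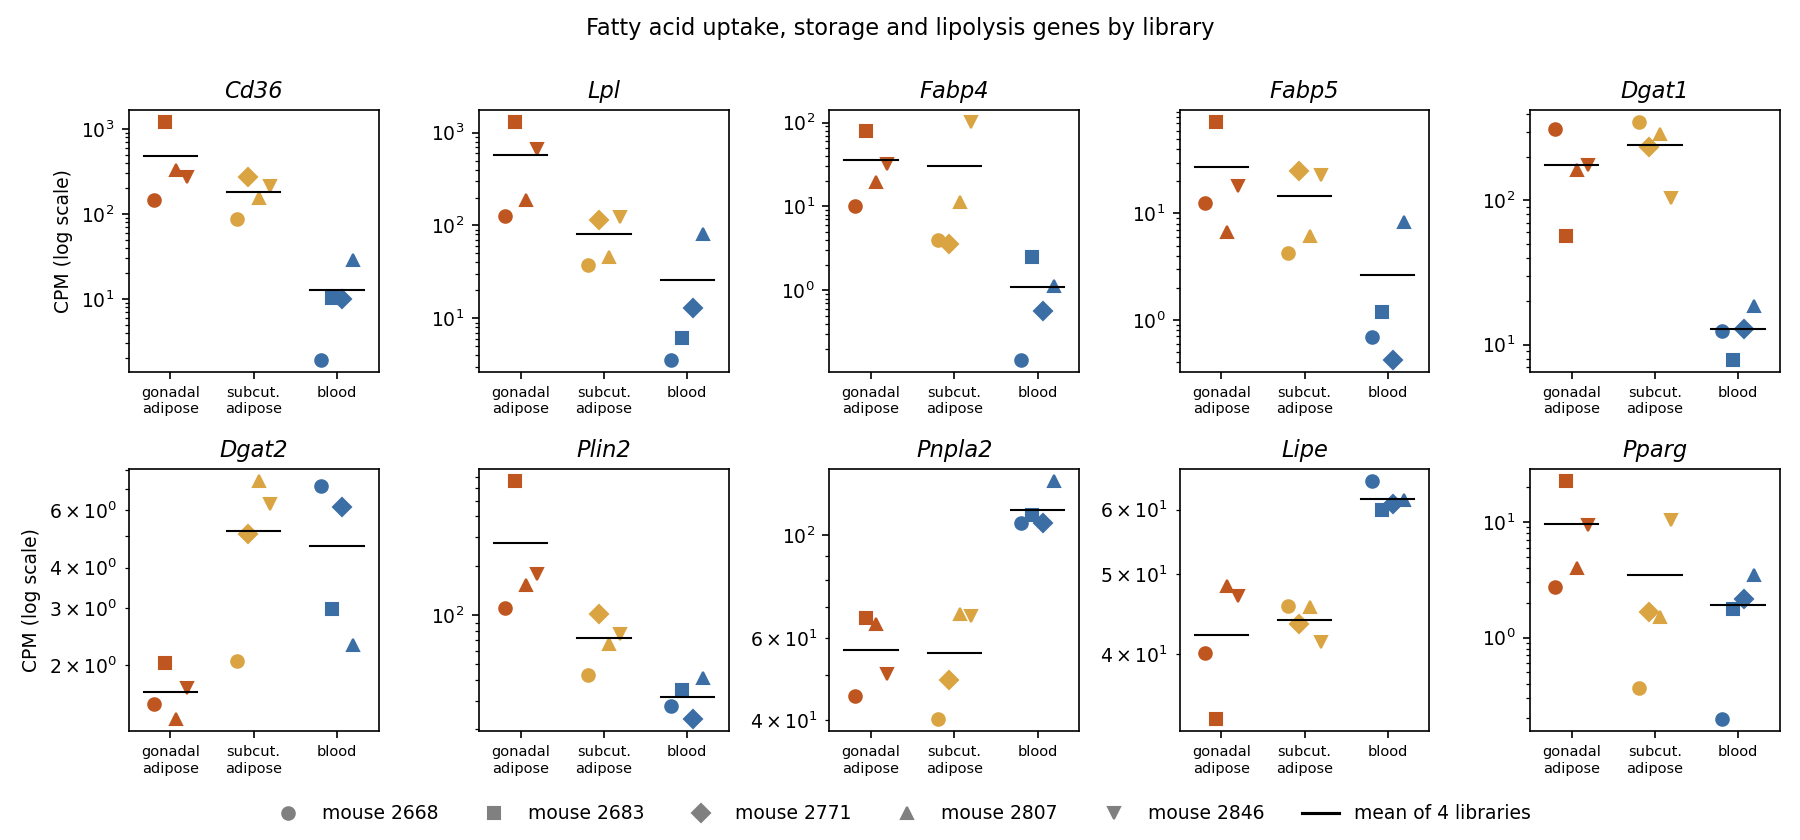
Each point is the CPM (log axis) of 1 library for each of the 10 genes, by tissue, with the symbol giving the mouse and the line the mean of 4 libraries. Cd36, Fabp4, Dgat1 and Plin2 are above blood in every adipose library, Pnpla2 and Lipe are below it, and gonadal 2683 is the highest for Cd36, Lpl, Plin2 and Pparg.

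Cd36 encodes a membrane receptor that takes up long-chain fatty acids and oxidized lipoproteins (ENSMUSG00000002944, chromosome 5, 17781690 to 17888801, minus strand, GRCm38). It had 269, 332, 1202 and 146 CPM in the gonadal libraries of mice 2846, 2807, 2683 and 2668. In subcutaneous adipose it had 211, 155, 270.3 and 86.2 CPM in mice 2846, 2807, 2771 and 2668, and in blood 29.0, 10.1, 10.3 and 1.93 CPM in mice 2807, 2771, 2683 and 2668. Every adipose library was above every blood library, and the depots overlapped. The log2 fold change was 5.25 (SE 0.91, edgeR adjusted p = 0.00208) in gonadal adipose over blood and 3.82 (SE 0.85, edgeR adjusted p = 0.00806) in subcutaneous adipose over blood. Without gonadal 2683 the gonadal value was 4.26, and without blood 2807 the values were 5.99 and 4.56. With the mouse as a block the subcutaneous value was 4.42. The 2 libraries also held the highest monocyte marker sums of their groups, at 6722 CPM for gonadal 2683 and 1959 CPM for blood 2807. Of these sums, Fn1 alone had 6195 and 1576 CPM. Another monocyte marker, F13a1, was instead highest in gonadal 2807 (504 CPM) and blood 2683 (37.5 CPM) of these groups. The part of other cells in the Cd36 result was not tested.

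All 6 annotated transcripts of Cd36 are protein-coding, so its reads could fall on no other class. They begin in 3 clusters of start sites. The most distal cluster (Cd36-203 and Cd36-205) held 39.7% to 49.9% of the gene's reads in gonadal adipose, 30.7% to 70.5% in subcutaneous adipose and 14.8% to 75.5% in blood. The cluster nearest to the coding sequence (Cd36-201 and Cd36-206) held 26.7% to 39.7% in gonadal adipose, 17.7% to 60.1% in subcutaneous adipose and 0% to 85.2% in blood. The groups overlapped in both shares, and the blood library with the widest values, that of mouse 2668, rested on 39 reads. The promoter window of Cd36 in RefSeq (GRCm38.p6, chr5:17835847-17836146, minus strand, 250 bases before to 50 after the start) has its start site 179 bases from that of Cd36-206. It is shown with that of Plin2 because both genes rose in gonadal adipose. Capitals mark the core motif AGGTCA of nuclear receptors such as PPAR, here read on the opposite strand.
Cd36 promoter: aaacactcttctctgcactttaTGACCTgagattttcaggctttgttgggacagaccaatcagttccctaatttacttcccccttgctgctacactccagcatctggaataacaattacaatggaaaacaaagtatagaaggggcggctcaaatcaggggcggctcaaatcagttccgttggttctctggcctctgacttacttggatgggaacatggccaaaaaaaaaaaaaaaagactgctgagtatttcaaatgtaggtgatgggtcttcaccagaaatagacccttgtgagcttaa
Plin2 promoter: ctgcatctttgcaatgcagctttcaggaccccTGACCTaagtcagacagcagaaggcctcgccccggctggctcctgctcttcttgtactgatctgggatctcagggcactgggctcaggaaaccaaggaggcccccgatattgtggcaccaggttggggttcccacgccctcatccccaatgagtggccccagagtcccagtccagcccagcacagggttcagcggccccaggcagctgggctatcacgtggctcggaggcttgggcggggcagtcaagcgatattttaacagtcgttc

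Both windows hold AGGTCA, at base -227 from the start in Cd36 and at base -217 in Plin2 (chr4:86670010-86670309, minus strand). It was searched on both strands, and 16.3% of 32851 promoter windows of that length hold it. The full PPAR element, in which AGGTCA stands 2 times with 1 base between, occurred in 0.0396% of windows and the AP-1 motif TGANTCA in 7.81%. Neither occurred in the windows of the 10 genes. Of the 10 genes, 5 had a window in the table (Plin2, Cd36, Pparg, Lipe and Pnpla2, with 8 windows in all). AGGTCA also occurred in 2 of the 3 Pparg windows, at -27 and -8, and in none of the windows of Lipe and Pnpla2. A match of letters describes a window and is not evidence of binding.

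Lpl encodes lipoprotein lipase, which frees fatty acids from circulating triglyceride (ENSMUSG00000015568, chromosome 8, 68880491 to 68907448, plus strand). It had 663, 187, 1298 and 128 CPM in the gonadal libraries of mice 2846, 2807, 2683 and 2668. Subcutaneous libraries had 122, 45.7, 115 and 37.5 CPM in mice 2846, 2807, 2771 and 2668, and blood libraries had 81.4, 13, 6.08 and 3.57 CPM in mice 2807, 2771, 2683 and 2668. All gonadal libraries were above all others, while subcutaneous and blood libraries overlapped through blood 2807.

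Lpl rose in gonadal adipose over blood by 4.45 on the log2 scale (SE 1.12, edgeR adjusted p = 0.0142). With the mouse as a block the adjusted p was 0.0541. In subcutaneous adipose over blood it was 1.62 (SE 1.0, edgeR adjusted p = 0.254). Without blood 2807 the gonadal value was 6.19 and the subcutaneous value 3.36, with an adjusted p of 0.0187 for subcutaneous adipose. Without gonadal 2683 the gonadal value was 3.63, and limma-voom gave 5.09. Gonadal over subcutaneous adipose was 2.83 (SE 1.04), a mean of 569 ± 542 CPM against 80.2 ± 44.8 CPM (SD, n = 4 each, edgeR adjusted p = 0.531). Gpihbp1, which holds the enzyme on capillary endothelium, was at 0 in all 4 blood libraries and at most 0.648 CPM in gonadal adipose, with 4.49 CPM in subcutaneous 2846.

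Fabp4 encodes the fatty acid binding protein of adipocytes and macrophages (ENSMUSG00000062515, chromosome 3, 10204088 to 10208576, minus strand). It had 32.4, 19.4, 80.1 and 10.1 CPM in the gonadal libraries of mice 2846, 2807, 2683 and 2668. In subcutaneous adipose there were 101, 11.4, 3.59 and 3.97 CPM in mice 2846, 2807, 2771 and 2668, and in blood 1.13, 0.564, 2.51 and 0.149 CPM in mice 2807, 2771, 2683 and 2668. Every adipose library was above every blood library, and the blood values rest on 3 to 48 reads.

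Fabp4 rose by 5.03 (SE 1.3, edgeR adjusted p = 0.0161) in gonadal and by 4.74 (SE 1.29, edgeR adjusted p = 0.0205) in subcutaneous adipose over blood. The subcutaneous value was 2.55 without subcutaneous 2846 (edgeR adjusted p = 0.0610). Its adjusted p was 0.0610 without blood 2771 and 0.0530 without blood 2668. The call also ended with no filter on low counts (adjusted p = 0.0645), with limma-voom (3.25, adjusted p = 0.0769) and without subcutaneous 2846 and blood 2807 together (2.56, adjusted p = 0.0956), so it held in 16 of 22 alternatives. The gonadal value was 4.22 without the library of mouse 2683, and its adjusted p was 0.0518 without blood 2771 and 0.0521 with no filter. The gonadal value was 4.39 with an offset for effective transcript length and 4.13 with protein-coding transcripts alone. Without blood 2683 the values were 5.86 and 5.57. With the mouse as a block they were 4.38 (adjusted p = 0.00326) and 3.88 (adjusted p = 0.00592). Fabp4 and the adipocyte marker Plin1 were both highest in subcutaneous 2846 among subcutaneous libraries, where Plin1 had 11.1 CPM against 0.147 to 1.19 CPM in the other 3. Adipoq had 0 reads in subcutaneous 2846. The endothelial gene Cdh5 had 62.3 CPM in that library, against 0.662 to 4.27 CPM in the other subcutaneous libraries. The fibroblast gene Col3a1 had 1799.7 CPM in it, against 75.9 to 123 CPM in the others. The part of adipocyte, endothelial or fibroblast RNA in the Fabp4 result was not tested. A transcript with a retained intron held 39.5% to 54.6% of Fabp4 reads in gonadal adipose, 0% to 21.1% in subcutaneous adipose and 0% to 33.3% in blood.

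Fabp5 encodes a binding protein found in many cells, macrophages among them (ENSMUSG00000027533, chromosome 3, 10012548 to 10016607, plus strand). It had 18.1, 6.63, 71.9 and 12.5 CPM in the gonadal libraries of mice 2846, 2807, 2683 and 2668. It had 23.1, 6.10, 24.8 and 4.27 CPM in the subcutaneous libraries of mice 2846, 2807, 2771 and 2668, and 8.25, 0.423, 1.20 and 0.695 CPM in the blood libraries of mice 2807, 2771, 2683 and 2668. Adipose and blood libraries overlapped only through blood 2807. The log2 fold change over blood was 3.38 (SE 1.09, edgeR adjusted p = 0.0399) in gonadal adipose and 2.46 (SE 1.06, edgeR adjusted p = 0.108) in subcutaneous adipose.

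The gonadal call of Fabp5 ended in 6 of 12 fits without 1 library: those without blood 2771, 2683 or 2668 and those without gonadal 2846, 2683 or 2668 (adjusted p 0.0501 to 0.133). The value was 2.22 without gonadal 2683. With the mouse as a block the adjusted p was 0.138, with no filter 0.108 and with subcutaneous libraries not fitted 0.0574. DESeq2 called the subcutaneous value (adjusted p = 0.0177), and limma-voom gave 4.05 for the gonadal value. Without blood 2807 the values were 5.09 and 4.17, with an adjusted p of 0.0133 in subcutaneous adipose. The copy Fabp5l2 had 0.353 to 3.84 CPM in gonadal adipose, 0.299 to 1.82 CPM in subcutaneous adipose and no reads in blood, and reads of near-identical copies can be divided between them.

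Dgat1 encodes an acyltransferase of the endoplasmic reticulum that makes triglyceride from diacylglycerol (ENSMUSG00000022555, chromosome 15, 76502015 to 76511953, minus strand). It had 175, 163, 56.3 and 313 CPM in the gonadal libraries of mice 2846, 2807, 2683 and 2668. The subcutaneous values were 104, 289.9, 233 and 349 CPM in mice 2846, 2807, 2771 and 2668, and the blood values 18.6, 12.8, 7.86 and 12.5 CPM in mice 2807, 2771, 2683 and 2668. The groups were well apart from blood. The log2 fold change was 3.77 (SE 0.52, edgeR adjusted p = 0.000485) in gonadal and 4.24 (SE 0.54, edgeR adjusted p = 0.000280) in subcutaneous adipose over blood, and the adjusted p was at most 0.00311 in every fit that left out 1 library.

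That rise lay in transcripts that are not annotated as protein-coding. Of 12 annotated Dgat1 transcripts, the coding one, Dgat1-201, averaged 5.0 ± 4.89 CPM in gonadal adipose, 9.33 ± 10.8 CPM in subcutaneous adipose and 4.78 ± 2.11 CPM in blood (mean ± SD, n = 4 each). The other transcripts together averaged 172 ± 107, 235 ± 108 and 8.14 ± 5.57 CPM in the same order. Transcripts with a retained intron held 76.6% to 91.5% of the gene's reads in gonadal adipose, 75.9% to 86.2% in subcutaneous adipose and 34.9% to 51.7% in blood. When protein-coding transcripts alone were counted, 24.2% of genes were called in gonadal and 22.7% in subcutaneous adipose over blood. Dgat1 then had a log2 fold change of 0.02 (SE 1.40, edgeR adjusted p = 0.993) in gonadal and 1.01 (SE 1.41, edgeR adjusted p = 0.650) in subcutaneous adipose over blood. The division of reads between transcripts is Salmon's estimate, and the coding transcript was set to 0 in gonadal 2846 and subcutaneous 2771.

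**Figure D3:**
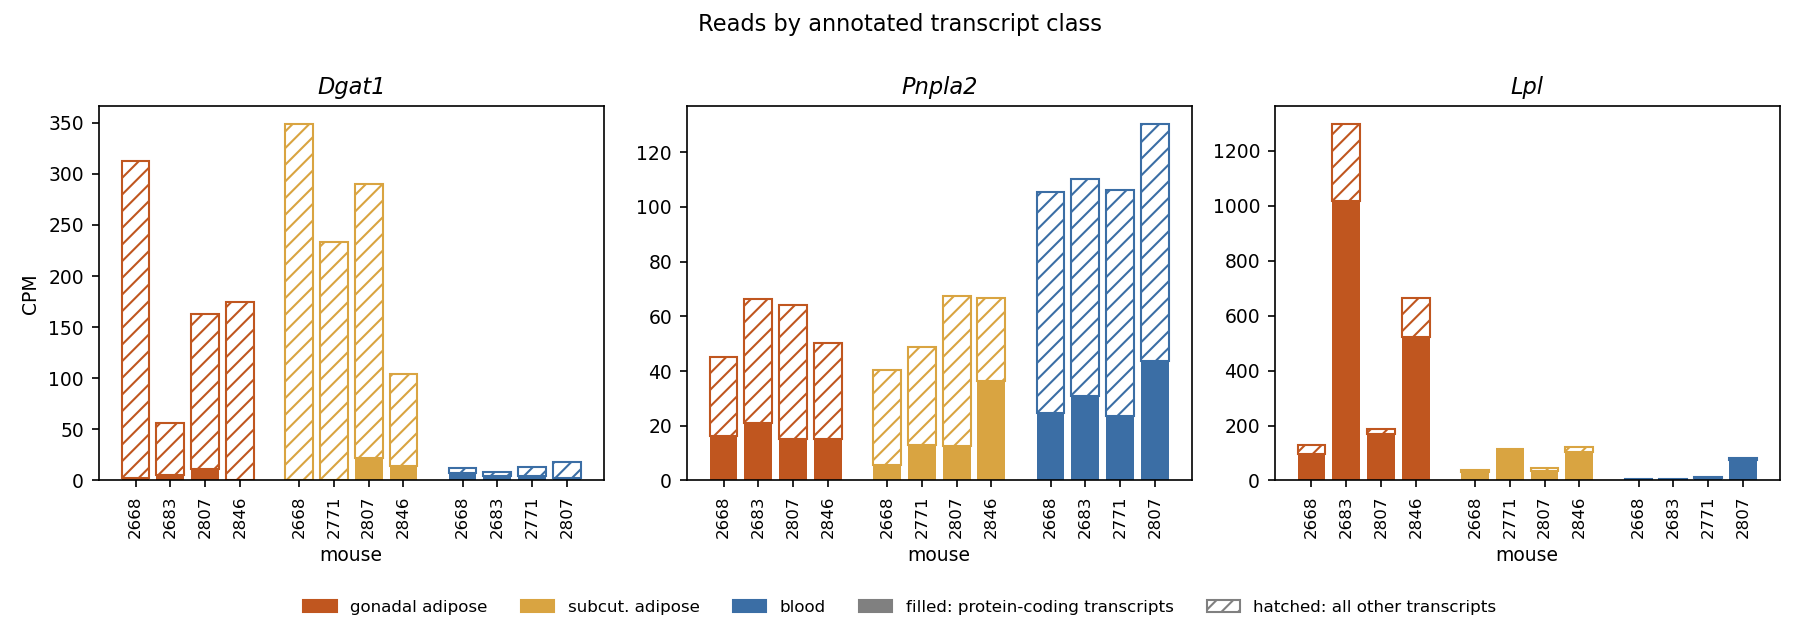
Bars give CPM in each library for Dgat1, Pnpla2 and Lpl, with filled parts for protein-coding transcripts and hatched parts for all other transcripts, grouped by tissue. The Dgat1 bars of adipose libraries are almost wholly hatched, while most of the Lpl bar is filled in every gonadal library.

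The retained-intron transcripts with the most reads were Dgat1-206 (60.2 ± 40.2 CPM in gonadal adipose, 74.6 ± 38.0 CPM in subcutaneous adipose and 1.5 ± 0.735 CPM in blood) and Dgat1-205 (41.8 ± 25.4, 51.2 ± 22.2 and 2.33 ± 0.674 CPM in the same order, SD, n = 4 each). Dgat1-203 averaged 30.9 ± 21 CPM in gonadal adipose, 37.4 ± 18.2 CPM in subcutaneous adipose and 0.355 ± 0.323 CPM in blood. Dgat1-201 has 17 exons and 16 introns, and 6 of the introns lie within another annotated transcript. Introns 5, 11, 12 and 13 are shown as examples from those 3 transcripts, and Dgat1-206 also holds intron 6, of 142 bases, which is not printed. They come from the GENCODE transcripts (GRCm38, minus strand), with the intron in capitals and 24 bases of the neighbouring exons in lower case.
Intron 5 in Dgat1-206, chr15:76504197-76504372: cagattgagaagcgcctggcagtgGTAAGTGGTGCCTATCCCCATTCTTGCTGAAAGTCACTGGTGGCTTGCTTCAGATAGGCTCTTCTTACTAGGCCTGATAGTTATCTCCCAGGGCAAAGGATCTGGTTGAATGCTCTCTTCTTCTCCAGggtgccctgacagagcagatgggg
Intron 11 in Dgat1-203, chr15:76503175-76503297: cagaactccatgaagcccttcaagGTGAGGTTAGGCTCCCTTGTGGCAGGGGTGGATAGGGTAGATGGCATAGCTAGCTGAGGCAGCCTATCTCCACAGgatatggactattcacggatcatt
Intron 12 in Dgat1-205, chr15:76503048-76503177: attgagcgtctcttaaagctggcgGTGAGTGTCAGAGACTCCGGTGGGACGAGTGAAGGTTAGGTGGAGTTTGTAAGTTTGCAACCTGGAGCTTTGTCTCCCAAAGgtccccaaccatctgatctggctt
Intron 13 in Dgat1-205, chr15:76502861-76502982: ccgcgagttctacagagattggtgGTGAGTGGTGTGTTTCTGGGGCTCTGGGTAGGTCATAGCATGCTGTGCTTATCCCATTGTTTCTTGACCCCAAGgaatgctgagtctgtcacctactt

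All 4 introns begin with GT and end with AG, and they are 128, 75, 82 and 74 bases long. The next gene, Hsf1, encodes a heat shock transcription factor, lies on the plus strand and ends 101 bases from the end of Dgat1 (chr15:76477422-76501913). Hsf1 had 30.3 to 37.9 CPM in gonadal adipose, 36.2 to 42.0 CPM in subcutaneous adipose and 20.5 to 27.9 CPM in blood. It rose by 0.43 (edgeR adjusted p = 0.0466) and by 0.68 (edgeR adjusted p = 0.00630) on the log2 scale. The sources used here do not give the strand setting, and reads that run on from Hsf1 into Dgat1 were not tested as a part of the Dgat1 values. The sum of 13 early response genes, of which 12 rose in gonadal and all 13 in subcutaneous adipose, moved with the same groups, at 13132 to 17017 CPM in gonadal adipose, 17374 to 22585 CPM in subcutaneous adipose and 1853 to 2375 CPM in blood. Its part in the Dgat1 result was not tested.

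Dgat2, the other acyltransferase for triglyceride, moved the other way in gonadal adipose (ENSMUSG00000030747, chromosome 7, 99153658 to 99182719, minus strand). It had 1.70, 1.37, 2.04 and 1.52 CPM in the gonadal libraries of mice 2846, 2807, 2683 and 2668. In subcutaneous adipose it had 6.29, 7.37, 5.08 and 2.06 CPM in mice 2846, 2807, 2771 and 2668, and in blood 2.31, 6.15, 2.99 and 7.14 CPM in mice 2807, 2771, 2683 and 2668. All gonadal libraries were below all others, only just so against the lowest subcutaneous library, and rested on 19 to 52 reads. It fell in gonadal adipose over blood by 1.48 on the log2 scale (SE 0.50, edgeR adjusted p = 0.0435) and was 0.15 (SE 0.49, edgeR adjusted p = 0.845) in subcutaneous adipose over blood.

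The gonadal call of Dgat2 held in 4 of 12 fits without 1 library. It ended without blood 2771, 2683 or 2668, without any 1 gonadal library and without subcutaneous 2807 (adjusted p 0.0513 to 0.128). With the mouse as a block the adjusted p was 0.143, and it was 0.0911 with no filter, 0.0693 with protein-coding transcripts alone and 0.0508 with limma-voom. With an offset for effective transcript length the log2 fold change was -0.64 (edgeR adjusted p = 0.465). Gonadal over subcutaneous adipose was -1.63 (SE 0.51), a mean of 1.66 ± 0.289 CPM against 5.20 ± 2.29 CPM (SD, n = 4 each, edgeR adjusted p = 0.453). The part of neutrophil RNA, whose marker sums were higher in blood, was not tested in the Dgat2 result.

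Plin2 encodes the perilipin that coats lipid droplets outside adipocytes (ENSMUSG00000028494, chromosome 4, 86648386 to 86670060, minus strand). It had 179, 153, 656 and 109.8 CPM in the gonadal libraries of mice 2846, 2807, 2683 and 2668. Subcutaneous libraries had 76.4, 66.1, 102 and 43.3 CPM in mice 2846, 2807, 2771 and 2668, and blood libraries had 41.1, 23.2, 34.6 and 27.7 CPM in mice 2807, 2771, 2683 and 2668. The 3 groups did not overlap and stood in the order gonadal adipose, subcutaneous adipose, blood.

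Plin2 rose by 3.12 (SE 0.54, edgeR adjusted p = 0.00186) in gonadal adipose over blood, and by 2.19 without gonadal 2683. It was 1.18 (SE 0.50, edgeR adjusted p = 0.102) in subcutaneous adipose over blood, and that adjusted p was 0.00743 without the same gonadal library and 0.0122 when gonadal libraries were not fitted. DESeq2 gave 0.0314 and limma-voom 0.0378. Gonadal over subcutaneous adipose was 1.93 (SE 0.51, edgeR adjusted p = 0.393), a mean of 274 ± 256 CPM against 72.0 ± 24.4 CPM (SD, n = 4 each). Protein-coding transcripts alone gave 3.18 and 1.26 over blood (edgeR adjusted p = 0.00125 and 0.0741). Plin1, the perilipin of adipocytes, was at 0 in every blood library and at no more than 1.53 CPM in gonadal adipose.

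Pnpla2 encodes adipose triglyceride lipase, which takes the first fatty acid off triglyceride (ENSMUSG00000025509, chromosome 7, 141455198 to 141460743, plus strand). It had 50.3, 64.3, 66.2 and 45.0 CPM in the gonadal libraries of mice 2846, 2807, 2683 and 2668. In subcutaneous adipose there were 66.8, 67.5, 48.7 and 40.2 CPM in mice 2846, 2807, 2771 and 2668, and in blood 130.3, 106, 110.3 and 106 CPM in mice 2807, 2771, 2683 and 2668. Every adipose library was below every blood library. It fell by 1.0 (SE 0.19, edgeR adjusted p = 0.00260) in gonadal and by 1.02 (SE 0.19, edgeR adjusted p = 0.00244) in subcutaneous adipose over blood. The neutrophil marker sums moved with the same groups, and the eosinophil sums too, and their part in the falls of Pnpla2 and Lipe was not tested. The depots differed by 0.02, with a 95% interval (normal approximation) of -0.35 to 0.39 on the log2 scale. The gene Cracr2b, which begins 350 bases past the end of Pnpla2 on the same strand, had 17.7 CPM at most and rose in both depots (edgeR adjusted p = 0.0112 and 0.00568).

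On average most Pnpla2 reads lay on Pnpla2-201, a transcript annotated for nonsense-mediated decay. It averaged 36.9 ± 9.80 CPM in gonadal adipose, 37.2 ± 10.5 CPM in subcutaneous adipose and 77.4 ± 2.43 CPM in blood (mean ± SD, n = 4 each). Protein-coding transcripts averaged 16.9 ± 2.77, 16.9 ± 13.3 and 30.7 ± 9.28 CPM in the same order. Tested alone they had -0.88 (SE 0.44, edgeR adjusted p = 0.170) and -0.78 (SE 0.45, edgeR adjusted p = 0.233), so the call rests on reads of the decay transcript as well. The promoter window of Pnpla2 (RefSeq GRCm38.p6, chr7:141454938-141455237, plus strand) is shown beside those of Cd36 and Plin2 because this gene moved the other way. It has no capitals because none of the 3 motifs occurs in it.
Pnpla2 promoter: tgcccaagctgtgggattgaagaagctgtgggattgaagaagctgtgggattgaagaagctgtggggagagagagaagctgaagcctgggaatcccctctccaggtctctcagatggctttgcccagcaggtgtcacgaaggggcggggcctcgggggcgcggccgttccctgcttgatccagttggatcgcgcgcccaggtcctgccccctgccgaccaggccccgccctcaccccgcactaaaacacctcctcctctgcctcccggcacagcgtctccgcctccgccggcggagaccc

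Lipe encodes hormone-sensitive lipase, which acts next, on diacylglycerol (ENSMUSG00000003123, chromosome 7, 25379527 to 25398710, minus strand). It had 47.0, 48.4, 33.3 and 40.1 CPM in the gonadal libraries of mice 2846, 2807, 2683 and 2668. The subcutaneous values were 41.3, 45.6, 43.5 and 45.7 CPM in mice 2846, 2807, 2771 and 2668, and the blood values 61.7, 61.0, 59.9 and 65.0 CPM in mice 2807, 2771, 2683 and 2668. On the log2 scale the spread within groups was the smallest of the 10 genes, and all adipose libraries were below all blood libraries. Lipe fell by 0.55 (SE 0.14, edgeR adjusted p = 0.0113) in gonadal and by 0.49 (SE 0.14, edgeR adjusted p = 0.0205) in subcutaneous adipose. The subcutaneous call ended without blood 2668 (adjusted p = 0.0532) and with protein-coding transcripts alone (-0.40, adjusted p = 0.0738). It also ended with no filter on low counts (0.0781), with the length offset (-0.65, adjusted p = 0.0678) and without subcutaneous 2846 and blood 2807 together (0.0690), so it held in 17 of 22 alternatives. The gonadal call ended with no filter alone (0.0536). The antisense gene 4732471J01Rik overlaps Lipe and had at most 2.59 CPM in any library.

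Pparg encodes the nuclear receptor that drives fat storage genes in adipocytes and lipid handling genes in macrophages (ENSMUSG00000000440, chromosome 6, 115360951 to 115490399, plus strand). It had 9.50, 4.03, 22.5 and 2.74 CPM in the gonadal libraries of mice 2846, 2807, 2683 and 2668. In subcutaneous adipose it had 10.5, 1.51, 1.67 and 0.368 CPM in mice 2846, 2807, 2771 and 2668, and in blood 3.50, 2.16, 1.78 and 0.198 CPM in mice 2807, 2771, 2683 and 2668. All groups overlapped. The log2 fold change over blood was 2.35 (SE 1.02, edgeR adjusted p = 0.106) in gonadal and 0.76 (SE 1.02, edgeR adjusted p = 0.611) in subcutaneous adipose. The gonadal value was called by DESeq2 (adjusted p = 0.0423), by limma-voom (0.0270) and, in edgeR, without subcutaneous 2846 (0.0478) and without subcutaneous 2846 and blood 2807 together (0.0417). The transcript Pparg-202 averaged 5.6 ± 4.6 CPM in gonadal adipose, 1.03 ± 1.37 CPM in subcutaneous adipose and 0.455 ± 0.909 CPM in blood (mean ± SD, n = 4 each). The antisense gene Gm44079, which overlaps Pparg, had no reads in any library.

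**Figure D4:**
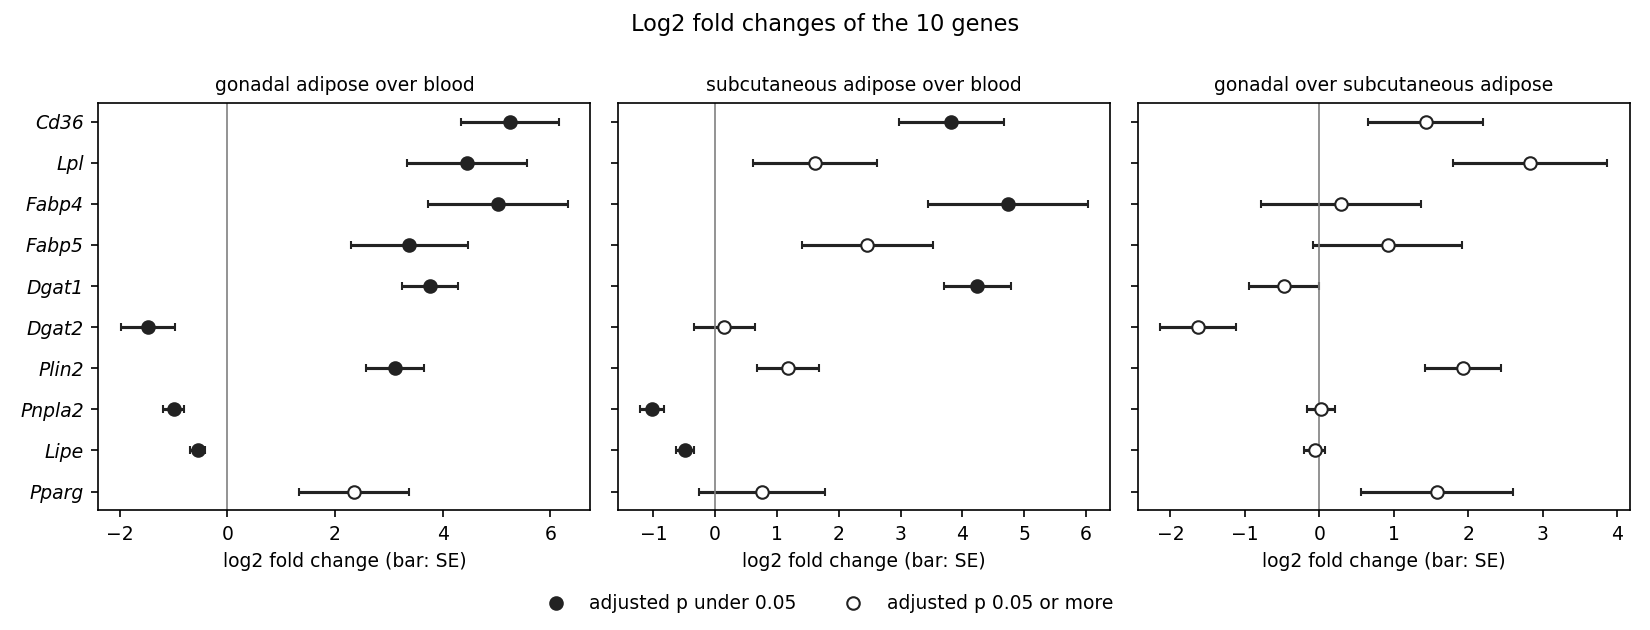
Points give the log2 fold change of each gene in each comparison, with bars for its SE and filled points for an adjusted p under 0.05. In gonadal adipose over blood, Cd36, Lpl, Fabp4, Fabp5, Dgat1, Plin2 and Pparg lie to the right of 0. Dgat2 lies to the left at -1.48, and Pnpla2 and Lipe at -1.0 and -0.55. With protein-coding transcripts alone, which are not drawn here, the Dgat1 value was 0.02.

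Per length of transcript, in TPM as deposited, the order of the 10 genes differed between tissues. In gonadal adipose the mean level was 126 ± 115 TPM for Cd36, 93.8 ± 64.4 TPM for Dgat1, 84.5 ± 73.4 TPM for Plin2 and 56.0 ± 52.3 TPM for Lpl (SD, n = 4 each). The ranges of these 4 overlapped. TPM was summed over all transcripts of a gene. For Dgat1, protein-coding transcripts held 0% to 10.1% of reads in gonadal and 0% to 13.8% in subcutaneous adipose. Pnpla2, Fabp4, Fabp5, Lipe, Pparg and Dgat2 followed at 10.9 ± 1.32, 9.28 ± 7.11, 9.15 ± 9.73, 4.98 ± 1.24, 2.41 ± 2.64 and 0.529 ± 0.200 TPM. In subcutaneous adipose Dgat1 led at 121 ± 66.5 TPM, with Cd36 at 41.7 ± 17.2 TPM and Plin2 at 23.8 ± 8.61 TPM, and the Dgat1 range (37.3 to 188 TPM) overlapped that of Cd36 (18.0 to 59.4 TPM). In blood Pnpla2 led at 21.6 ± 8.80 TPM, followed by Plin2 at 12.7 ± 6.18 TPM and Lipe at 8.25 ± 1.90 TPM. The Plin2 range (7.46 to 21.3 TPM) overlapped both others, while Pnpla2 (12.2 to 33.4 TPM) lay above Lipe (5.51 to 9.90 TPM). Cd36 was 3.15 ± 3.44 TPM in blood and Fabp4 0.391 ± 0.312 TPM.

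The 10 genes did not vary alike among libraries of 1 depot. In gonadal adipose the library of mouse 2683 was the highest for Cd36, Lpl, Fabp4, Fabp5, Plin2, Pparg, Dgat2 and Pnpla2, and the lowest for Dgat1 and Lipe. It also had the highest macrophage sum (9286 CPM), the highest monocyte sum (6722 CPM) and the lowest eosinophil sum (1060.5 CPM) of its group. These sums rest largely on few genes, with Lyz2 at 3827, Apoe at 2127 and Fn1 at 6195 CPM in that library. Single macrophage markers differed in order. C1qa was highest in gonadal 2683 (203 CPM), but Mrc1 had 683 CPM in it and 758 CPM in gonadal 2807. The library of mouse 2668 was the lowest of the gonadal group for Cd36, Lpl, Fabp4, Plin2, Pnpla2 and Pparg and the highest for Dgat1, and had the lowest macrophage sum (1929 CPM) and the highest eosinophil sum (3079 CPM). In blood the library of mouse 2807 was the highest for Cd36, Lpl, Fabp5, Dgat1, Plin2, Pnpla2 and Pparg, and had the highest macrophage and monocyte sums (1890.0 and 1959 CPM). Of that monocyte sum, Fn1 alone had 1576 CPM in this library. The macrophage gene Mrc1 stood there at 131 CPM, against 0.943 to 23.2 CPM in the other blood libraries. The part of macrophage or monocyte RNA in the values of the 10 genes was not tested.

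Genes whose log2 CPM came nearest to that of a member over the 12 libraries were found by the root mean square difference after centring. For Cd36 the nearest was Slc27a1 (0.49, where the spread of Cd36 itself was 2.53), followed by H2-Ea-ps and Arhgap22 (0.59 each). Centred within groups it was Cd68 (0.28), followed by Tlr8 (0.31) and Slc27a1 (0.33). For Lpl these were Tenm4 (0.48), Mmp19 (0.52) and Myof (0.58), and within groups H2-Aa (0.24), Cd74 and H2-DMb2 (0.35 each). For Fabp4 they were Cald1 (0.67), Trim36 (0.90) and Arhgap22 (0.94), within groups Jag1 (0.55), Cald1 (0.61) and Trim36 (0.65). For Fabp5 they were Sh3pxd2b (0.60), Rhoc (0.61) and Ltbp3 (0.68), within groups Anpep (0.43), Fam129b (0.51) and Ltbp3 (0.52). Cd68, H2-Aa and Cd74 are genes of macrophages and other antigen-presenting cells.

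For Plin2 the nearest were Lipa (0.34), Abhd12 (0.40) and Dhrs3 (0.44), and within groups Vat1 (0.18), Pld3 and Rap2b (0.21 each). Dgat1 was nearest to Ets2 and Gm37733 (0.31 each) and Isy1 (0.38), and the same 3 came first within groups (0.23, 0.23 and 0.24). Dgat2 was nearest to Gm48586 (0.53), Gm12258 and Gm38302 (0.56 each), within groups to Sco1 (0.25), Ccp110 (0.32) and Gm49338 (0.33). Pnpla2 was nearest to Irak3 (0.13), Zfp26 (0.16) and Traf6 (0.17), within groups to Golga5, Cul5 and Narfl (0.11 each). Lipe was nearest to Ikbkb (0.10), Dhrs1 and Ccnt2 (0.11 each), within groups to Mark3, Cnot3 and Brd8 (0.08 each). These distances describe the 12 libraries and carry no test.

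The wider pathway did not move in 1 direction. Of 215 further lipid genes on 8 lists, 212 were found and 161 were tested. In gonadal adipose against blood 32 rose and 14 fell (28.6% called, where 27.0% of all genes were). In subcutaneous adipose against blood 23 rose and 21 fell (27.3%, where 26.8% of all genes were), and 16 and 13 with the mouse as a block. None was called by edgeR between the depots, and DESeq2 called Pdk4. Medians of the 161 genes were 0.23, 0.16 and 0.15 on the log2 scale, in the same order of comparisons. Counts for single lists can be read against all genes tested, of which 15.4% rose in either depot and 11.6% and 11.4% fell.

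Several calls of named genes against blood also depended on how the fit was set up. With no filter on low counts the calls of Angptl4, Acsl1, Agpat3, Gpat4 and Prkacb in gonadal adipose and of Cav1, Faf2, Pde3a, Ehhadh and Acly in subcutaneous adipose ended (edgeR adjusted p 0.0525 to 0.0954). With only the groups compared in the fit, those of Angptl4 in gonadal adipose and of Cav1, Faf2, Ehhadh and Acly in subcutaneous adipose ended (0.0560 to 0.0830). With limma-voom those of Cav1, Faf2 and Pde3a ended (0.0569 to 0.225), and with nuclear protein-coding genes alone that of Acly (0.0581). Without subcutaneous 2846 and blood 2807 together those of Acsl1 and Gpat4 in gonadal adipose and of Faf2, Pde3a, Ehhadh and Acly in subcutaneous adipose ended (0.0575 to 0.188). Calls that ended with the length offset or with protein-coding transcripts alone are given with each gene.

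**Figure D5:**
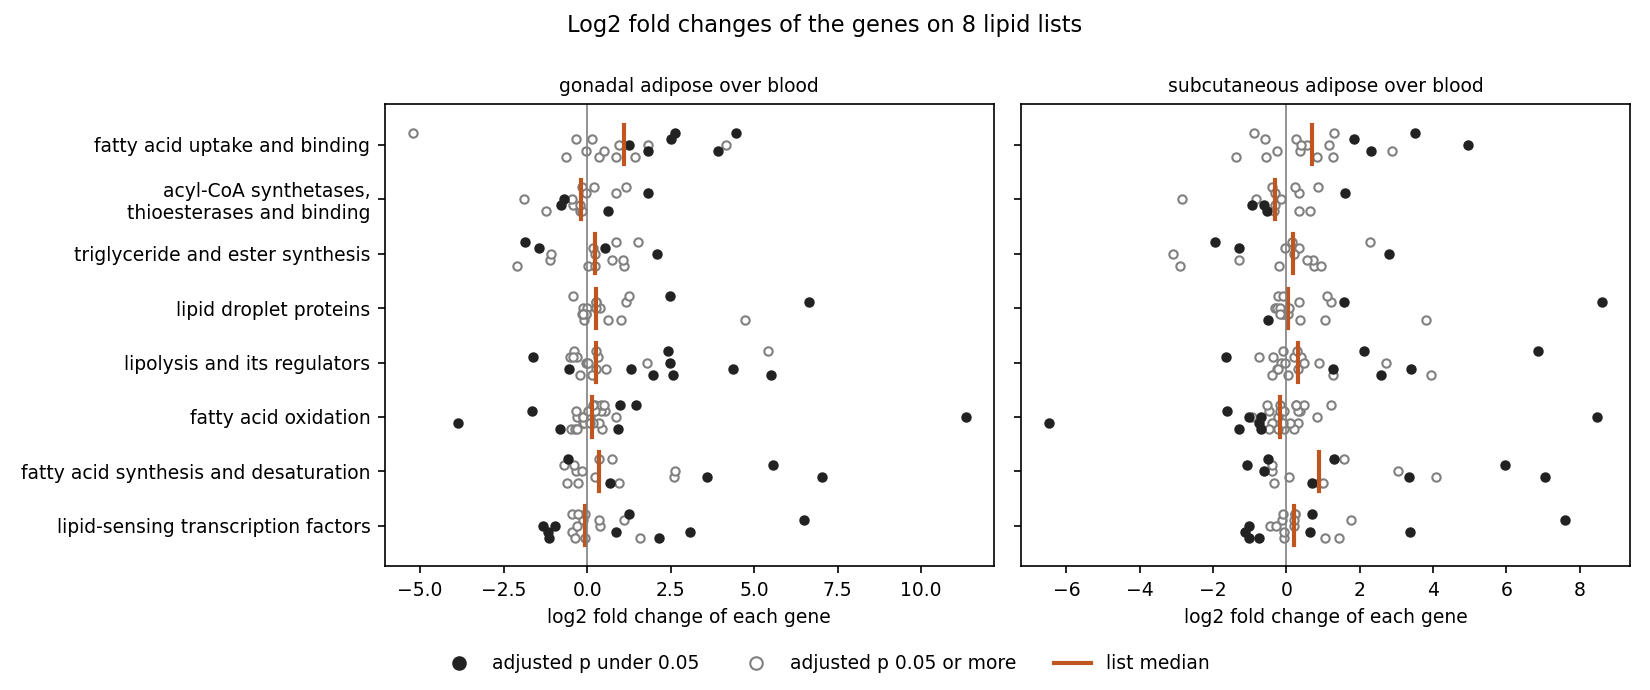
Each point is the log2 fold change of 1 gene on a lipid list, filled where the adjusted p is under 0.05, with the list median as a bar, for gonadal adipose and subcutaneous adipose over blood. Uptake and binding genes have the highest median in gonadal adipose (1.10) with no called gene below 0; fitted values of genes with almost no reads in blood, such as Pdk4, depend on the prior count.

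Uptake and binding genes had 6 of 18 called higher in gonadal adipose and 4 of 18 in subcutaneous adipose, with none lower (medians 1.10 and 0.70). Slc27a1, a fatty acid transport protein, averaged 37.5 ± 34.7 CPM in gonadal adipose, 19.6 ± 11.2 CPM in subcutaneous adipose and 1.72 ± 1.81 CPM in blood (mean ± SD, n = 4 each). It rose by 4.46 (edgeR adjusted p = 0.00394) and 3.51 (edgeR adjusted p = 0.0116), or 5.45 and 4.50 without blood 2807 and 3.55 in gonadal adipose without gonadal 2683. Angptl4, an inhibitor of lipoprotein lipase, rose in gonadal adipose by 3.92 (edgeR adjusted p = 0.0321). That value was 6.89 without blood 2807 and 2.93 (adjusted p = 0.101) without gonadal 2683. It was 4.65 with the mouse as a block, 5.24 with protein-coding transcripts alone and 5.48 with limma-voom. The call also ended without blood 2771, 2683 or 2668 or gonadal 2807 (adjusted p 0.0531 to 0.0842). Cav1, the coat protein of caveolae, rose in subcutaneous adipose by 4.95 (edgeR adjusted p = 0.0379), but had 28.4 CPM in the library of mouse 2846 and at most 1.66 CPM in the other 3 subcutaneous libraries. It was 1.82 (adjusted p = 0.260) without that library, 2.62 (adjusted p = 0.231) with the mouse as a block, 3.36 with limma-voom, 6.90 with the length offset and 6.63 without blood 2807. The call also ended without blood 2771, 2683 or 2668 or gonadal 2846, 2807 or 2668 (adjusted p 0.0509 to 0.0964).

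On the acyl-CoA list, which holds synthetases that activate fatty acids as well as thioesterases and binding proteins, 2 of 16 rose and 2 fell in gonadal adipose, and 1 rose and 3 fell in subcutaneous adipose (medians -0.18 and -0.32). That is 4 called in each, where 27.0% and 26.8% of all genes were. The synthetase gene Acsl3 rose by 1.82 (edgeR adjusted p = 0.00694) and 1.59 (edgeR adjusted p = 0.0138), but was 1.06 (adjusted p = 0.313) and 0.89 (adjusted p = 0.397) with the length offset. Acsl5, another synthetase gene, rose by 0.61 in gonadal adipose (edgeR adjusted p = 0.0145, and 0.0552 and 0.0543 without blood 2771 or gonadal 2846). The thioesterase gene Acot9 fell by 0.77 (edgeR adjusted p = 0.00328) and 0.95 (edgeR adjusted p = 0.000980), and neither call held with protein-coding transcripts alone (-0.76, adjusted p = 0.444, and -1.41, adjusted p = 0.156). Acsl1 fell by 0.68 in gonadal adipose (edgeR adjusted p = 0.0448), a call that ended with the mouse as a block (0.0719), with the length offset (0.483) and without blood 2807, 2771 or 2683, gonadal 2846, 2807 or 2668 or subcutaneous 2807 (0.0542 to 0.147). The acyl-CoA binding gene Acbd5 fell by 0.60 in subcutaneous adipose (edgeR adjusted p = 0.0133, and 0.0558 with the mouse as a block). With protein-coding transcripts alone it was -0.22 (adjusted p = 0.536).

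Of 16 tested genes for triglyceride and ester synthesis, 2 rose and 2 fell in gonadal adipose and 1 rose and 2 fell in subcutaneous adipose (medians 0.24 and 0.18). Mboat7, which acylates lysophosphatidylinositol, averaged 126 ± 25.6 CPM in gonadal adipose, 139 ± 49.9 CPM in subcutaneous adipose and 338 ± 28.5 CPM in blood (mean ± SD, n = 4 each, edgeR adjusted p = 0.00132 and 0.00257). Agpat5, an acyltransferase for phosphatidic acid, fell by 1.87 (edgeR adjusted p = 0.000458) and 1.95 (edgeR adjusted p = 0.000399). Agpat3 of the same family rose by 2.08 in gonadal (edgeR adjusted p = 0.0354) and 2.80 in subcutaneous adipose (edgeR adjusted p = 0.0110). Gpat4, which starts glycerolipid synthesis, rose by 0.53 in gonadal adipose (edgeR adjusted p = 0.0329). The gonadal calls of Agpat3 and Gpat4 depended on single libraries and on the counting. That of Agpat3 ended without blood 2771, 2683 or 2668 or gonadal 2807 or 2683 (adjusted p 0.0677 to 0.10) and with the length offset (1.41, adjusted p = 0.263). That of Gpat4 ended without any 1 blood or gonadal library (0.0519 to 0.101), with the length offset (0.428) and with protein-coding transcripts alone (0.180).

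Lipid droplet proteins had 2 of 19 higher in gonadal adipose, and 2 higher and 1 lower in subcutaneous adipose (medians 0.28 and 0.04). Dhrs3, a retinal reductase, averaged 114 ± 93.9 CPM (SD, n = 4) in gonadal adipose, against 20.6 ± 6.56 CPM in blood and rose by 2.47 (edgeR adjusted p = 0.00718), or 1.71 without gonadal 2683. Faf2, an adaptor of protein degradation, fell in subcutaneous adipose by 0.50 (edgeR adjusted p = 0.0287). Its adjusted p was 0.116 with the mouse as a block, 0.201 with protein-coding transcripts alone and 0.0545 to 0.0917 without blood 2683 or 2668 or subcutaneous 2846 or 2668.

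On the list of lipolysis genes and their regulators 7 of 24 rose and 2 fell in gonadal adipose, and 5 rose and 1 fell in subcutaneous adipose (medians 0.28 and 0.30). Hilpda, an inhibitor of the lipase that Pnpla2 encodes, averaged 13.7 ± 10.5 CPM in gonadal adipose, 6.85 ± 1.95 CPM in subcutaneous adipose and 0.653 ± 0.351 CPM in blood (mean ± SD, n = 4 each). It rose by 4.38 (edgeR adjusted p = 0.000295) and 3.39 (edgeR adjusted p = 0.00131), or 3.67 in gonadal adipose without the library of mouse 2683. G0s2, another inhibitor of that lipase, had 122, 197, 55.7 and 177 CPM in the gonadal libraries of mice 2846, 2807, 2683 and 2668. It had 56.3, 219.7, 61.4 and 105 CPM in the subcutaneous libraries of mice 2846, 2807, 2771 and 2668, and 24.9, 20.6, 25.5 and 31.7 CPM in the blood libraries of mice 2807, 2771, 2683 and 2668.

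Every adipose library was above every blood library for G0s2, which rose by 2.42 (SE 0.47, edgeR adjusted p = 0.00347) and 2.11 (SE 0.47, edgeR adjusted p = 0.00709). Abhd5, the activator of the same lipase, averaged 16.2 ± 1.36 CPM in gonadal adipose, 16.4 ± 5.67 CPM in subcutaneous adipose and 13.4 ± 1.67 CPM in blood (mean ± SD, n = 4 each, edgeR adjusted p = 0.456 and 0.393). G0s2 and Abhd5 were singled out after their values were seen. Pnpla7, a lysophospholipase, fell by 1.62 (edgeR adjusted p = 0.000162) and 1.66 (edgeR adjusted p = 0.000143). The diacylglycerol lipase gene Dagla had 8, 3, 0 and 0 reads in the blood libraries of mice 2807, 2771, 2683 and 2668. It rose by 5.49 in gonadal adipose (edgeR adjusted p = 0.0162), or 6.93 without blood 2807 and 6.24 with limma-voom, with an adjusted p of 0.0519 without blood 2771. Prkacb, a catalytic subunit of protein kinase A, fell by 0.53 there (edgeR adjusted p = 0.0231, 0.0611 with the mouse as a block, 0.226 with the length offset, and 0.0515 to 0.0704 without blood 2807, 2771 or 2683 or gonadal 2846). The phosphodiesterase gene Pde3a rose by 6.86 in subcutaneous adipose (edgeR adjusted p = 0.0342), where 25.8 CPM came from the library of mouse 2846 and at most 2.54 CPM from the other 3 subcutaneous libraries. Its adjusted p was 0.118 without that library, 0.209 with the mouse as a block and 0.0694 to 0.0898 without any 1 blood library (9.77 without that of mouse 2683). The value was 4.10 without subcutaneous 2846, 5.21 with the block, 8.12 with the length offset and 3.66 with limma-voom.

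Fatty acid oxidation genes had 4 of 30 higher and 3 lower in gonadal adipose, and 1 higher and 7 lower in subcutaneous adipose (medians 0.14 and -0.18). Pdk4, a kinase that holds back pyruvate oxidation, had 7.13, 14.6, 53.5 and 5.18 CPM in the gonadal libraries of mice 2846, 2807, 2683 and 2668 and no reads in blood (edgeR adjusted p = 0.000481). Against a floor of 3 counts over the blood group it was at least 642-fold higher, or at least 225-fold without gonadal 2683. Both bounds pool the reads of a group and leave out the spread between mice. The mitochondrial reductase gene Decr1 rose by 1.46 in gonadal adipose (edgeR adjusted p = 0.0315, and 0.0643 to 0.0932 without blood 2771, 2683 or 2668 or gonadal 2846, 2807 or 2683). The peroxisomal thiolase gene Acaa1a fell by 0.81 (edgeR adjusted p = 0.00445) and 1.3 (edgeR adjusted p = 0.000282), with an adjusted p of 0.0620 in gonadal adipose with protein-coding transcripts alone. The peroxisomal enzyme gene Ehhadh fell by 1.65 (edgeR adjusted p = 0.0343) and 1.61 (edgeR adjusted p = 0.0391). Those calls of Ehhadh ended without any 1 blood library, without gonadal 2846, 2683 or 2668 for gonadal adipose and without subcutaneous 2771 for subcutaneous adipose (adjusted p 0.0551 to 0.0927), and with the mouse as a block in gonadal adipose (0.0572). They also ended with the length offset (0.0543 and 0.0596) and, in subcutaneous adipose, with protein-coding transcripts alone (0.0575).

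Fatty acid synthesis and desaturation genes had 4 of 17 higher and 1 lower in gonadal adipose, and 5 higher and 3 lower in subcutaneous adipose (medians 0.37 and 0.88). Fads1, a desaturase, averaged 20.5 ± 11.9 CPM in gonadal adipose, 17.4 ± 10.7 CPM in subcutaneous adipose and 1.71 ± 0.153 CPM in blood (mean ± SD, n = 4 each, edgeR adjusted p = 0.000768 and 0.00126). Acaca, the acetyl-CoA carboxylase gene, rose by 0.68 in gonadal adipose (edgeR adjusted p = 0.0147, and 0.0526 and 0.0579 without blood 2683 or 2668, and 0.173 with the length offset). The elongase gene Elovl5 fell by 0.57 there (edgeR adjusted p = 0.0134), but was -0.29 (adjusted p = 0.373) with the length offset. In subcutaneous adipose Fads3 rose by 5.95 (edgeR adjusted p = 0.00663), or 4.05 without the library of mouse 2846, 7.79 without blood 2807, 6.62 with protein-coding transcripts alone, 4.92 with limma-voom and 4.77 with the mouse as a block. Fads3 had 18.6 CPM in subcutaneous 2846 and 0.662 to 2.38 CPM in the other subcutaneous libraries. It had 5, 1, 0 and 0 reads in the blood libraries of mice 2807, 2771, 2683 and 2668.

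Also in subcutaneous adipose, Elovl1 fell by 1.08 (edgeR adjusted p = 0.0245, 0.0887 with the mouse as a block, 0.0505 with protein-coding transcripts alone, and 0.0690 and 0.0512 without blood 2683 or 2668). Acly, the ATP citrate lyase gene, fell by 0.62 (edgeR adjusted p = 0.0422). Its call ended with the mouse as a block (0.0603), with the length offset (0.113), with protein-coding transcripts alone (0.0681) and without any 1 blood library, gonadal 2846 or 2807 or subcutaneous 2846 or 2771 (0.0530 to 0.0999).

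Among lipid-sensing transcription factors and their partners 5 of 21 rose and 4 fell in gonadal adipose, and 4 rose and 4 fell in subcutaneous adipose (medians -0.06 and 0.20). Cebpb, a factor of adipocyte and myeloid differentiation, averaged 277 ± 54.3 CPM in gonadal adipose, 339 ± 107 CPM in subcutaneous adipose and 32.5 ± 10 CPM in blood (mean ± SD, n = 4 each, edgeR adjusted p = 1.36e-05 and 7.36e-06). Rxra, the DNA-binding partner of PPAR proteins, averaged 111 ± 31.5, 115 ± 24 and 251 ± 21 CPM in the same order (edgeR adjusted p = 0.00231 and 0.00307). Cebpd fell by 1.32 in gonadal adipose (edgeR adjusted p = 0.00397), and Ncor1, a corepressor of nuclear receptors, fell by 1.03 in subcutaneous adipose (edgeR adjusted p = 0.00198). The coactivator gene Ppargc1b rose by 2.16 in gonadal adipose (edgeR adjusted p = 0.0270), or 2.81 without blood 2807 and 1.59 (adjusted p = 0.104) without gonadal 2683. Its call also ended with the mouse as a block (0.0819), with the length offset (0.0843) and without blood 2771, 2683 or 2668 or gonadal 2846 (0.0558 to 0.0787).

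Ebf2, a factor of adipose progenitors, had 141 counts in subcutaneous adipose and 2 in blood. The ratio per read was 119 (95% counting interval 32.4 to 996), or 59.4 (15.8 to 501) without subcutaneous 2846. These intervals pool the reads of a group and leave out the spread between mice. Of the 141 counts, 76 came from subcutaneous 2846. It had 22.8 CPM in subcutaneous 2846 and at most 3.04 CPM in the other 3 (edgeR adjusted p = 0.00562, 0.0728 with the mouse as a block and 0.00982 without that library). Cav1, Pde3a, Fads3 and Ebf2 were all highest, among subcutaneous libraries, in the library with the highest fibroblast marker sum, 6149.7 CPM, whose part in these 4 results was not tested beyond leaving that library out.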

How the data were processed

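RNA of sorted eosinophils was sequenced from 12 libraries with a SMARTer kit for stranded total RNA (v2 Pico), per the labels' protocols. Reads were trimmed with Trim Galore 0.6.4 and quantified with Salmon 1.6.0 against mm10, and DESeq2 1.30.1 is also listed, per the submitters' processing notes. The authors deposited, for 140992 transcripts per library, estimated counts (not whole numbers), TPM (adjusted for length and depth) and the effective length as another value. The annotation release and strand setting are not given in the sources used here.

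From these, 139791 transcripts were matched to GENCODE M21 genes (GRCm38) and summed to 54115 genes. The 1201 unmatched transcripts held 0.3513% to 0.5382% of reads and were left out. Gene sums were rounded, scaled by TMM and filtered with filterByExpr, leaving 15367 genes. All 12 libraries were fitted together with edgeR 4.0.16 (robust quasi-likelihood, R 4.3.3), with Benjamini-Hochberg adjustment over all genes and a threshold of 0.05. The steps were tested on simulated data. Alternatives used DESeq2 1.42.0, limma 3.58.1, other filters and scaling, protein-coding transcripts alone, a block for the mouse and each library left out. Motifs were searched in RefSeq promoter windows (GRCm38.p6).

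The same mouse gave several libraries, so the mouse numbers pair them. Deviations from the group means correlated between libraries of the same mouse by -0.111 to 0.358 (mean 0.0842 over 9 pairs), and between those of other mice by -0.0188 on average (39 pairs).

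The 10 genes and all lists were chosen with earlier results of these data known. On each list, the genes named are the 2 called with the largest change in each direction in a comparison, provided that whichever group was higher averaged 5 CPM or more, so a gene named for 1 depot may be called in the other too. G0s2 and Abhd5 stand outside this rule and were added after their values were seen.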

Additional observations from a re-analysis of the deposited data

Results flagged for a closer look

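In groups of 4 libraries, the gap of the highest or lowest library to its nearest neighbour was set against the range of the group, and compared with the 95% critical value of Dixon's test. Of 78 groups, 10 passed, all through a high value. The test passes about 1 in 20 groups by chance where values are normally distributed. CPM was used without a log, so the 10 cannot be read as more than chance gives. In 5 the value was that of a member gene. Lpl had 81.4 CPM in blood 2807, where the others had 3.57 to 13 CPM, and Fabp5 had 8.25 CPM there, where the others had 0.423 to 1.20 CPM. Fabp4 had 101 CPM in subcutaneous 2846, where the others had 3.59 to 11.4 CPM, and Pparg had 10.5 CPM there, where the others had 0.368 to 1.67 CPM. Plin2 had 656 CPM in gonadal 2683, where the others had 109.8 to 179 CPM.

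The other 5 were sums of marker genes. The fibroblast and progenitor sum was 6149.7 CPM in subcutaneous 2846, with 593 to 716 CPM in the others. In blood 2807 the monocyte sum was 1959 CPM, with 110.0 to 405 CPM in the others, and the mesothelial sum 14.4 CPM, with 2.54 to 3.98 CPM in the others. Of that monocyte sum, Fn1 alone had 1576 CPM. The erythroid sum was 8371 CPM in blood 2771, with 17.7 to 144 CPM in the others. The B cell sum was 16.4 CPM in gonadal 2807, with 5.54 to 6.45 CPM in the others.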

How the results depend on the processing

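Of 10 genes, 9 were called in gonadal adipose against blood, 5 with no filter on low counts and 6 to 10 without 1 library. In subcutaneous adipose against blood 5 were called, 3 with no filter, 2 with protein-coding transcripts alone and 3 to 7 without 1 library. Between depots none was called, and 1 with DESeq2 (Plin2). Of the 161 further lipid genes, 46 were called in gonadal adipose (31 to 57 without 1 library) and 44 in subcutaneous adipose (28 to 49 without 1 library, 29 with the mouse as a block). Between depots none was called, and 1 with DESeq2 (Pdk4). Over all genes, 4152 were called in gonadal adipose against blood, 6484 by limma-voom and 2753 without blood 2771. In subcutaneous adipose 4121 were called, 2689 with protein-coding transcripts alone and 2737 without blood 2683. Between depots 1 gene was called, and 152 by DESeq2.

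Directions turned only where the main value was not called. With 1 library left out at a time, Dgat2 in subcutaneous adipose over blood ranged from -0.11 to 0.43 and Pparg from -0.66 to 1.18. Between depots Fabp4 ranged from -0.49 to 2.49, Fabp5 from -0.20 to 1.34, Pnpla2 from -0.11 to 0.13 and Lipe from -0.13 to 0.04. In subcutaneous adipose over blood limma-voom gave -0.02 for Dgat2 and -0.16 for Pparg. Without subcutaneous 2846 and blood 2807 together, Dgat2 was -0.16 and Pparg -0.21. The length offset gave -0.08 for Abhd5 there, and -0.19 for Fabp4 between depots, where protein-coding transcripts gave -0.68. Pnpla2 between depots was -0.04 with the mouse as a block, -0.01 by DESeq2, -0.02 with RLE scaling, -0.04 with nuclear protein-coding genes and -0.10 with protein-coding transcripts. The causes were not tested. Some values rest on few reads: Fabp4 had 3 to 48 and Fabp5 9 to 139 in blood, Dgat2 19 to 52 in gonadal adipose, and Pparg 5 to 35 in subcutaneous adipose. Among the further lipid genes, blood libraries had 0 to 8 reads of Dagla, 0 to 5 of Fads3, 0 to 13 of Cav1 and 0 to 4 of Pde3a.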
